A study of Mus musculus with 150 samples.

Results

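The cells described here are 10 cells of lung tumour T7 whose DNA had lost the distal part of chromosome 10, set against the other 38 T7 cells. They were chosen on the readout itself. In each of the 48 T7 cells that passed a noise limit, the median log2 ratio over the distal chromosome 10 bins was taken. A cell counted as lost when that value was -0.42 or lower, which is what 1.5 copies in place of 2 would give. The same value is given by 3 copies in place of 4, while 1 copy in place of 2 would give -1. The lost cells lay between these values, and copy numbers were not assigned to them. The series held 150 single cells, 50 from each of the tumours T1, T7 and T9 of 1 mouse.

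Tumour cells gain and lose whole chromosomes and chromosome arms when chromosomes are missorted or broken during division. A loss that arises in 1 cell passes to its descendants, so cells that share the same breaks are commonly placed on the same branch of a tumour, while a loss carried by few cells may mark a late or a minor branch. Mouse chromosome 10 carries Mdm2, whose product marks p53 for degradation, Cdk4, a kinase that drives entry into DNA replication, and Stk11, a tumour suppressor kinase of lung adenocarcinoma.

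Lost and other T7 cells came from the same tumour, the same mouse (M3) and the same time, 30 weeks after induction, so they share every engineered allele and every treatment. The mouse was a KP animal on a mixed C57BL/6 and Sv129 background with Trp53 flox/flox, Rosa26 LSL-tdTomato and Rosa26 LSL-Luciferase among the strains used. Tumours of such mice are started with an adenovirus that carries Cre under the surfactant protein C promoter or with one that carries FlpO under the CMV promoter, and the labels do not say which was given to this animal. The floxed Trp53 allele is thus shared by both sets of cells as they were inherited. Its deletion is far shorter than a bin and cannot be seen in these data, so whether each cell carries it was not tested. The labels give alveolar type 2 cells as the source, which DNA copy number cannot check. T7 is 1 tumour, so cells are not replicates, no test was made between the sets, and the 95% intervals below, exact and after Clopper and Pearson, reflect the counting of cells alone. The upper limits given for counts of 0 follow a simpler rule and lie under the exact ones, at 7.89% against 9.25% for 0 of 38.

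A level is the median log2 ratio over the bins of a stretch, relative to the autosomal median of the same cell, and a difference is the median over lost cells minus the median over other T7 cells. Bins had a median length of 500 kb, and 5149 of them were used. Sequenced bases had a median of 69.3 Mb in lost cells (32.9 to 85.9) and 69.3 Mb in other T7 cells (24.6 to 140.3). The noise between neighbouring bins was higher in lost cells, at 0.173 (0.12 to 0.235) against 0.144 (0.0932 to 0.216) in other T7 cells, and its part in the values below was not tested.

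The distal region used for the choice ran on GRCm38 from chr10:70187514-130594993 and held 121 bins and 654 protein-coding genes. Lost cells had distal levels of -0.89 (cell 180051), -0.73 (180095), -0.70 (180057), -0.66 (180055), -0.66 (180070), -0.65 (180065), -0.59 (180066), -0.58 (180091), -0.50 (180098) and -0.44 (180086). The other T7 cells had a median of -0.01 and lay between -0.41 and 0.17. The split between the sets is what the choice made, and no test applies to it. Just inside the threshold stood cell 180086 at -0.44, and just outside it stood cell 180053 at -0.41, with the next cell, 180071, at -0.21. Cell 180053 was the deepest of the T7 cells, with 140.3 Mb.

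The proximal part of the chromosome was not used for the choice, and most of the lost cells had lost it too. It ran from chr10:3100001-70187513, with 134 bins and 347 protein-coding genes. Its level was at or under -0.42 in 7 of the 10 lost cells, against 0 of the 38 other T7 cells, a count that leaves room for a share of 7.89%. Those 7 lost cells had proximal levels of -0.85 (180051), -0.73 (180095), -0.67 (180070), -0.66 (180057), -0.64 (180066), -0.61 (180065) and -0.47 (180091). The remaining 3 lost cells stood at -0.06 (180055), -0.01 (180086) and -0.0032 (180098), inside the range of the other T7 cells, which was -0.23 to 0.18. Of the 134 proximal bins, 133 (99.3%) had a difference at or under -0.2, with a median difference of -0.52. Only the distal level was therefore past the threshold in 3 cells, and loss of all or most of chromosome 10 was the pattern of the other 7. Of the 3, cells 180055 and 180086 had also lost the end of the proximal part, since their losses began at 65.2 and 57.4 Mb.

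**Figure D1:**
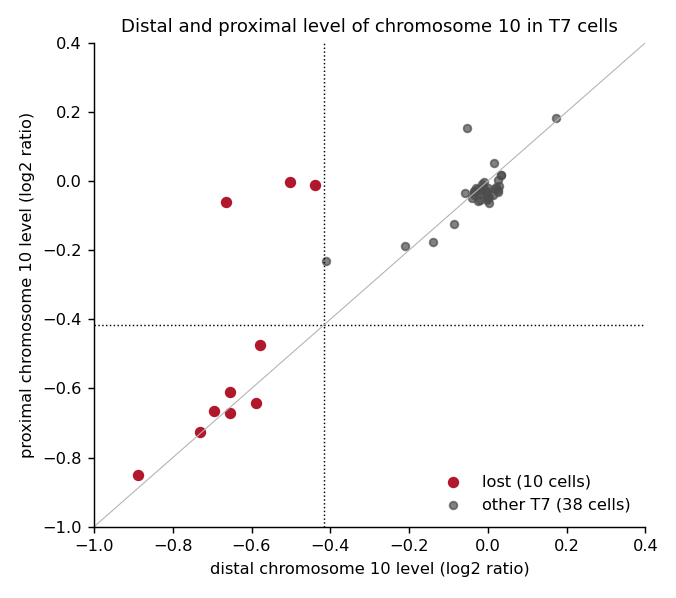
Each point is 1 T7 cell, with its distal chromosome 10 level on the horizontal axis and its proximal level on the vertical axis (log2 ratio); red points are the 10 lost cells, grey points the 38 other T7 cells, dotted lines mark the loss threshold and the diagonal marks equal levels. The 7 lost cells at the lower left have both levels past the threshold, and the 3 at the upper left have only the distal level past it.

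To see where on chromosome 10 the loss began, the best single step between 2 means was placed in each cell. A drop of at least 0.4 was present in 4 lost cells and in 0 of the 38 other T7 cells. The latter count was largely set by the choice, which kept cells with a low distal level out of that set. The 6 lost cells without one, 180051, 180057, 180065, 180066, 180070 and 180095, were low along the whole chromosome. In cell 180055 the bins averaged -0.04 before 65.2 Mb and -0.67 after it, and no other position gave nearly as good a fit. In cell 180098 the step lay at 71.7 Mb, where the mean was -0.04 before it and -0.52 after it, and positions from 70.7 Mb gave nearly the same fit. In cell 180086 it lay at 57.4 Mb (57.4 to 58.2), with 0.05 before it and -0.50 after it. The step of 180086 accounted for 47.1% of the variance over bins, and this cell had the second highest noise of the lost cells (0.222). The ranges of near-best positions of these 3 cells did not overlap, so the 3 distal losses had 3 different starts, spread over 14.3 Mb.

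Just before its step, cell 180086 was above the other lost cells. Its stretches from 40 to 50 Mb and from 50 to 60 Mb stood at 0.27 and 0.22, and the next 10 Mb stood at -0.55. Cell 180091 also had a step, at 25 Mb, with a mean of -0.13 before it and -0.59 after it, but it accounted for 17.2% of the variance over bins, against 81.5% in 180055, and near-best positions ran from 22.5 to 31.5 Mb. That cell was the noisiest of the lost cells (0.235). The other T7 cell closest to the threshold, 180053, had its best step at 70.2 Mb with -0.22 before it and -0.42 after it, a drop of 0.19. In 180090, another T7 cell not counted as lost, the best step lay at 68.2 Mb, with 0.18 before it and -0.05 after it. It accounted for 39.1% of the variance over bins.

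**Figure D2:**
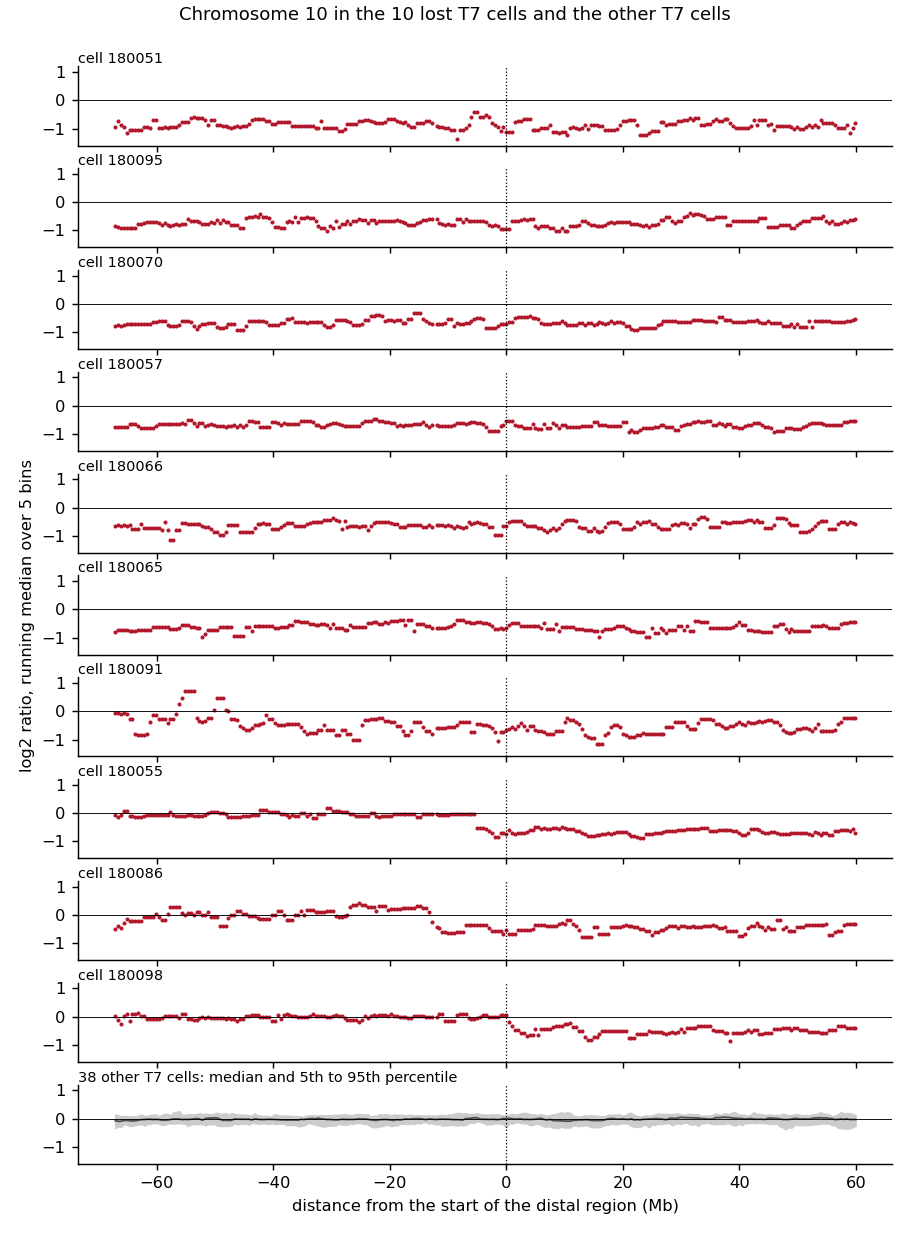
Log2 ratio along chromosome 10 as a running median over 5 bins, against the distance in Mb from the start of the distal region (dotted line); each of the upper 10 panels is 1 lost cell, and the lowest panel gives the median of the 38 other T7 cells with their 5th to 95th percentile in grey. Cells 180055, 180086 and 180098 drop near the dotted line at 3 different positions, cell 180091 has its step far to the left, and the other 6 cells are low throughout.

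Gene levels near the steps differed between lost cells with the positions of the steps, although some values missed the threshold narrowly. Each gene was given the running median over 5 bins at its middle, so a value is that of a stretch of about 5 bins and neighbouring genes can share it. Cdk1, the kinase that starts mitosis, Arid5b, a DNA-binding chromatin factor, and Egr2, an early-response transcription factor, lie between the steps of cells 180055 and 180098. They were at or under the threshold in 9 of 10 lost cells each, and the exception was cell 180098 in each case, at 0.06, -0.02 and -0.02. Cdk1 stood at -0.71 in cell 180055 and at -0.59 in cell 180086. Tet1, which oxidises methylated cytosine, and Sirt1, a deacetylase, lie nearer the centromere than the step of 180055 and stood at -0.03 and -0.02 in that cell. In cell 180086 Tet1 stood at -0.61 and Sirt1 at -0.37, and in cell 180098 both stood at 0.08. Both genes stood at -0.38 in cell 180091, and Tet1 at -0.39 in cell 180065. These values were not past the threshold, although the genes lie inside the losses of those cells. Over the 17 listed genes of the proximal part, the difference ran from -0.70 to -0.49, with a median of -0.64, and between 6 and 9 of the 10 lost cells were past the threshold.

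All 24 listed genes of the distal region lie in the stretch that chose the cells, so their values are a description only. Their differences ran from -0.74 to -0.49 with a median of -0.62. Between 7 and 10 of the 10 lost cells and between 0 and 2 of the 38 other T7 cells were at or under -0.42 at a given gene. Cdk4 had a median of -0.67 (SD 0.11 over cells) in lost cells and -0.04 (SD 0.13) in other T7 cells, and all 10 lost cells were past the threshold. Mdm2 stood at -0.70 (SD 0.20) in lost cells and -0.03 (SD 0.15) in other T7 cells, with 8 lost cells past the threshold. Stk11 stood at -0.62 (SD 0.25) in lost cells against -0.08 (SD 0.17) in other T7 cells, also with 8.

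Other genes of the region followed the same levels. Hmga2, a chromatin protein of embryonic cells and advanced tumours, had -0.71 (SD 0.17) in lost cells and -0.0039 (SD 0.14) in other T7 cells. Btg1, which restrains proliferation, had -0.75 (SD 0.15) in lost cells and -0.0052 (SD 0.12) in other T7 cells. Socs2, which dampens cytokine receptor signalling, had -0.75 (SD 0.15) in lost cells and -0.02 (SD 0.10) in other T7 cells. Lyz2, the lysozyme gene of macrophages and alveolar type 2 cells, had -0.59 (SD 0.24) in lost cells and -0.02 (SD 0.14) in other T7 cells. The lowest lost median of the list belonged to Socs2 and the highest, -0.54, to Erbb3 and Stat2, a receptor kinase and an interferon signalling factor that share the same bins.

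Outside chromosome 10, the genome was scanned in windows of 10 Mb for changes that at least 3 lost cells and no other T7 cell carried. Losses of this kind were present in 9 of 250 windows (3.6%), 7 of them on chromosome 7 and 2 on chromosome 4. Gains of this kind were present in 0 of 250 windows (0%). In all 9 windows the cells were the same 3, namely 180057, 180066 and 180070, each of which had lost the whole of chromosome 10. The 2 regions and everything below about these 3 cells were picked after the values had been seen.

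The region on chromosome 7 that the 3 cells had in common was chr7:72890259-139590729, which is 66.7 Mb long with 133 bins and 807 protein-coding genes. Its level was -0.68 in 180057, -0.68 in 180066 and -0.64 in 180070. In the remaining 7 lost cells it lay between -0.10 and 0.01, and in the 38 other T7 cells between -0.10 and 0.17. The region on chromosome 4 was chr4:135071982-156358116, 21.3 Mb up to the last bin, with 46 bins and 335 protein-coding genes. Its level was -0.73 in 180057, -0.70 in 180066 and -0.74 in 180070, while the remaining 7 lost cells lay between -0.13 and 0.01 and the other T7 cells between -0.33 and 0.07. The 3 cells thus stood clear of all other T7 cells in both regions, which the scan had asked for in its windows.

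The edges were placed in each of the 3 cells separately. On chromosome 7 the first lost bin began at 72890259 in all 3 cells, and the last ended at 139590729 in 180057 and 180066 and at 140119199 in 180070. On chromosome 4 the first lost bin began at 135071982 in 180057 and 180070 and at 134578370 in 180066. The edges therefore agreed to within 1 bin. Both losses were present in 3 of 10 lost cells and in 0 of 38 other T7 cells. The scan had asked for such counts, so no interval or upper limit applies to them. Taken from the deposited depth instead of the log2 ratio, the 3 cells stood between -0.69 and -0.65 on chromosome 7 and between -0.85 and -0.59 on chromosome 4, and 0 other T7 cells were past the threshold in either.

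**Figure D3:**
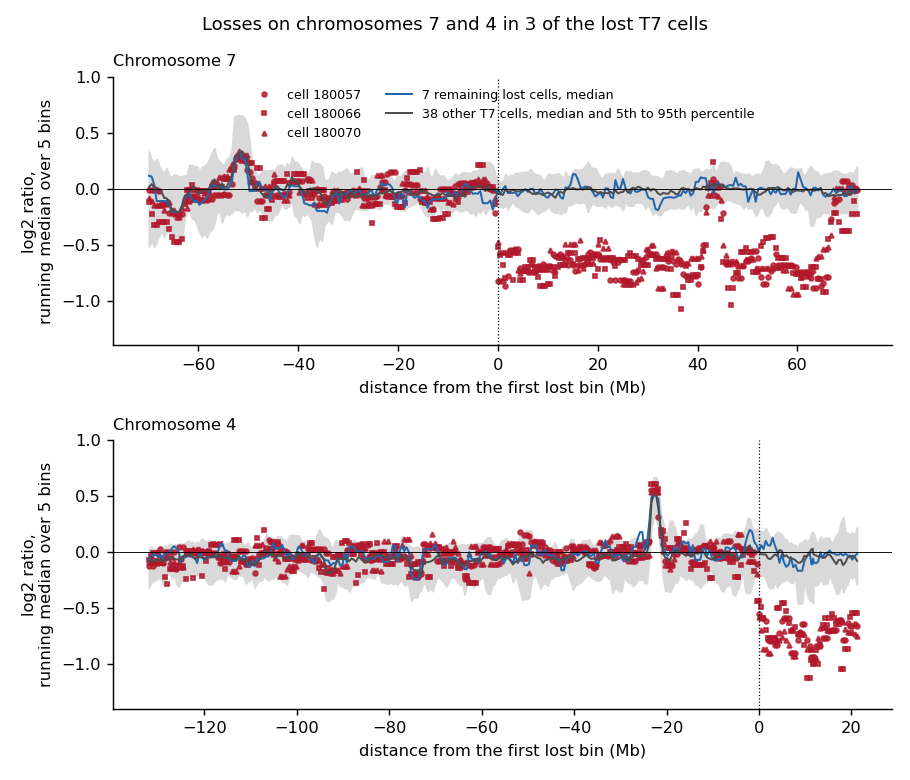
Log2 ratio along chromosome 7 (upper panel) and chromosome 4 (lower panel) as a running median over 5 bins, against the distance in Mb from the first lost bin; red symbols are cells 180057, 180066 and 180070, the blue line is the median of the remaining 7 lost cells, and the dark line with the grey band is the median and the 5th to 95th percentile of the 38 other T7 cells. The red symbols drop at 0 in both panels, return to the level of the other cells for about 3 Mb at 42.1 Mb on chromosome 7, and return again near its end.

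Inside the chromosome 7 loss, the 3 cells shared a short stretch that was not lost. It began 42.1 Mb after the first lost bin and covered chr7:115030070-118030468, which is 6 bins. Cell 180057 had bin values from 0.02 to 0.32 there, and a level of 0.06. Cell 180066 had values from -0.27 to 0.29 and a level of 0.15, and cell 180070 had values from -0.10 to 0.09 and a level of -0.04. The rest of the region stood at -0.69, -0.69 and -0.67 in the same cells. The remaining lost cells lay between -0.19 and 0.14 in this stretch and the other T7 cells between -0.26 and 0.19, so the 3 cells were within the range of cells without the loss.

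The edges of the retained stretch, placed in each cell separately, spanned 8 bins in 180057, 6 in 180066 and 7 in 180070, and differed by at most 1 bin on either side. No other stretch lost in these 3 cells had a running median at or over -0.1 at any bin, on chromosome 10 or on chromosome 4. Over the 10 lost cells the only other stretch with such bins was proximal chromosome 10 of the noisy cell 180091, with 16 of 134. The retained stretch holds 8 protein-coding genes of the RefSeq table. Among them are Sox6, a transcription factor of cartilage, muscle and red blood cell precursors, Plekha7, a protein of adherens junctions, Rps13, a protein of the small ribosomal subunit, Pik3c2a, a lipid kinase of membrane traffic, and Xylt1, which starts proteoglycan chains.

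Genes in the 2 lost regions were low in the same 3 cells, with a few further calls. On chromosome 4, Mtor, the nutrient-sensing growth kinase, stood at -0.84 in 180057, -0.82 in 180066 and -0.68 in 180070, and 3 of 10 lost cells were past the threshold there, against 0 of 38 other T7 cells. Casp9, the caspase that starts mitochondrial apoptosis, stood at -0.59 in 180057, -0.63 in 180066 and -0.83 in 180070. On chromosome 7, Blm, a helicase that guards recombination, stood at -0.74 in 180057, -0.70 in 180066 and -0.73 in 180070. Wee1, which holds cells before mitosis, stood at -0.76 in 180057, -0.88 in 180066 and -0.67 in 180070. Trp73, a p53 relative, and Plk1, a mitotic kinase, were past the threshold in 1 further lost cell, 180086, at -0.44 and -0.49, although the regions as a whole stood at -0.09 and -0.10 in that cell. Among other T7 cells, Chd5, a chromatin remodeller, was past the threshold in 2 of 38 cells, and Trp73 and Fgfr2, a growth factor receptor, in 1 each. Arid1a, a chromatin remodelling subunit just before the chromosome 4 region, and Ccnd1, the cyclin partner of Cdk4 beyond the chromosome 7 region, were past the threshold in 0 of 10 lost cells each.

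The 3 cells also differed from the rest on chromosome 11, in a stretch of 2 bins, chr11:16077352-17075609. Its level was -0.66 in 180057, -0.75 in 180066 and -0.63 in 180070, while the remaining 7 lost cells lay between -0.21 and 0.44 and the other T7 cells between -0.40 and 0.14. Of 4283 pairs of neighbouring bins off chromosomes 4, 7 and 10, 6 were past the loss threshold in both bins in all 3 cells, and this pair was the only 1 past it in none of the remaining T7 cells. Only in 180066 did the loss have these edges. In 180057 the bin before the stretch was low as well, at -0.57, and in 180070 the loss ran from the start of the chromosome. The stretch is short and neither bin reached the median weight. It holds 6 protein-coding genes, among them Egfr, the epidermal growth factor receptor, and Plek, a signalling protein of platelets and white blood cells.

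The part of chromosome 11 before that stretch, chr11:3100001-16077351, had a different level in each of the 3 cells. It was lost in 180070, at -0.63, gained in 180066, at 0.37, and at -0.05 in 180057. The remaining 7 lost cells lay between -0.08 and 0.05 and the other T7 cells between -0.31 and 0.06, so 180070 and 180066 stood outside all other T7 cells in opposite directions. The rest of chromosome 11 stood at 0.00047 in 180057, -0.02 in 180066 and -0.02 in 180070. From depth, the part before the short stretch stood at -0.53 in 180070, 0.42 in 180066 and 0.03 in 180057, and the short stretch between -0.76 and -0.55 in the 3 cells.

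Over the 3305 bins of the chromosomes other than 2, 4, 6, 7, 10 and X, the correlation of bin values, after the median of all T7 cells was taken off each bin, had a median of 0.03 (-0.04 to 0.10) over the 3 pairs of these cells. Over all 1128 pairs of T7 cells it had a median of -0.01 (-0.48 to 0.73). No 2 T7 columns were identical. Their gains were close to each other, with chromosome 2 at 0.44 in all 3 cells and chromosome 6 at 0.44 to 0.45. In the other tumours, the chromosome 7 region was past the threshold in 2 of 47 cells of T1 and 0 of 50 cells of T9. The chromosome 4 region was past it in 45 of 47 cells of T1, against 5 of 50 cells of T9.

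The lost cells were next compared on the 2 chromosomes that most T7 cells had gained. Chromosome 2 had a median level of 0.42 in lost cells (0.30 to 0.51, SD 0.05) and 0.37 in other T7 cells (-0.09 to 0.51, SD 0.18). A gain, at least 0.32 or the log2 of 2.5 copies over 2, was called in 9 of 10 lost cells (90%, 55.5 to 99.7) and in 25 of 38 other T7 cells (65.8%, 48.6 to 80.4). Chromosome 6 had a median level of 0.42 in lost cells (0.28 to 0.51, SD 0.07) and 0.37 in other T7 cells (-0.01 to 0.79, SD 0.14), with a gain in 8 of 10 lost cells (80%, 44.4 to 97.5) and 29 of 38 other T7 cells (76.3%, 59.8 to 88.6). The intervals overlap for both chromosomes. The lowest lost cell stood at 0.30 on chromosome 2 and at 0.28 on chromosome 6, and 9 other T7 cells lay below it on chromosome 2 and 4 on chromosome 6.

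**Figure D4:**
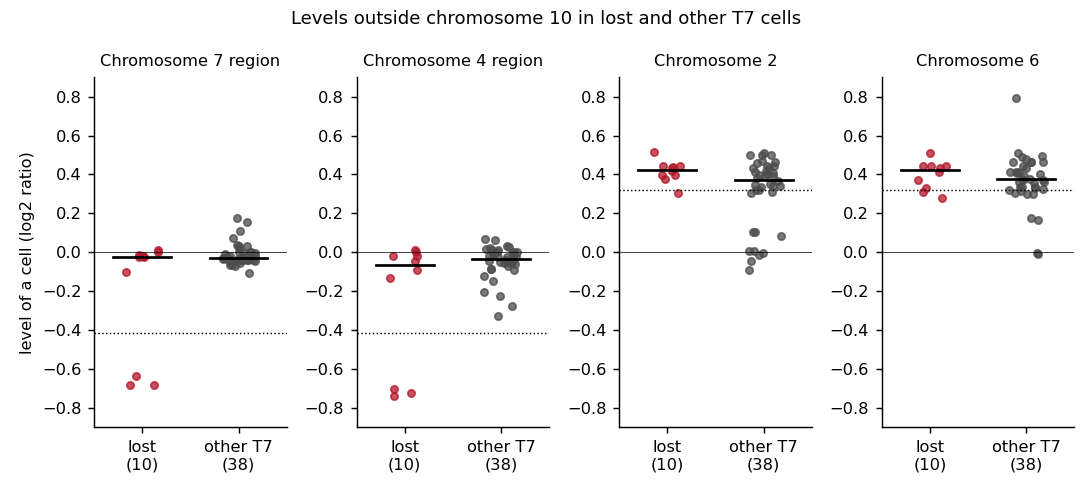
Level of each cell (log2 ratio, vertical axis) in the chromosome 7 region, the chromosome 4 region, chromosome 2 and chromosome 6, with the 10 lost cells at the left and the 38 other T7 cells at the right of each panel; bars are medians and dotted lines the thresholds of loss (first pair of panels) and gain (second pair). The 3 lost cells near -0.7 stand apart in the first pair, and on chromosomes 2 and 6 the low values all belong to other T7 cells.

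Taken as whole chromosomes, those other than 2, 6 and 10 gave few calls. Lost cells carried no call on any of these autosomes, 0 of 10, where up to 30% could go unseen, and 9 of 38 other T7 cells carried at least 1. Loss of chromosome 14 was called in 0 of 10 lost cells and 3 of 38 other T7 cells (7.89%, 1.66 to 21.4), and gain of chromosome 15 likewise in 0 of 10 and 3 of 38. With 10 lost cells such a difference was not detectable. No autosome at all was called in 7 of the 38 other T7 cells, but not all of these were flat. On chromosomes 2 and 6, for example, 180068 stood at 0.319 and 0.297, just under the threshold of gain, and 180063 at 0.006 and -0.005. The differences in level ran from -0.04 on chromosome 7 to 0.05 on chromosome 2, and no difference of medians outside chromosome 10 reached 0.1 in either direction. With means over cells in place of medians, chromosome 2 did, with 0.42 in lost cells, 0.31 in other T7 cells and a difference of 0.10.

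**Figure D5:**
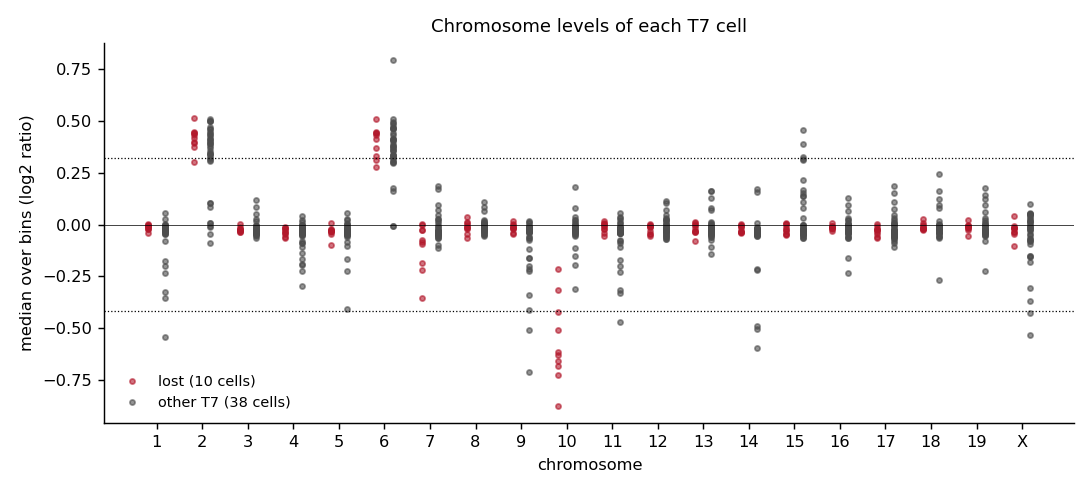
Median over bins (log2 ratio, vertical axis) of each chromosome in each T7 cell, with the 10 lost cells in red at the left and the 38 other T7 cells in grey at the right of each chromosome; dotted lines are the thresholds of gain and loss. Away from chromosomes 2, 6 and 10, the red points lie close to 0 except for 3 low points on chromosome 7. The grey points reach farthest on chromosomes 1, 5, 9, 11, 14, 15 and X.

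Similarity between cells without chromosome 10 was described by Pearson's r over the levels of the other 18 autosomes. The median r was 0.96 over the 45 pairs of lost cells (0.85 to 0.99), 0.82 over the 380 pairs of a lost and another T7 cell (-0.16 to 0.996) and 0.71 over the 703 pairs of other T7 cells (-0.46 to 0.997). These values share the 2 gained chromosomes, whose part in r was not tested, and pairs share cells. By this measure lost cells were more alike among themselves than the other T7 cells, of which some lacked the gains.

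Bin by bin, 33 of the 4894 bins outside chromosome 10 (0.674%) had a difference of at least 0.2, and 50 (1.02%) had one at or under -0.2. Of the 50 lower bins, 40 lay in the chromosome 7 and 4 regions, 40 of 179 bins (22.3%), against 10 of the 4715 bins elsewhere (0.212%). The regions were placed on the losses of 3 of these lost cells, so the larger share inside them followed from that choice. The 5th and 95th percentiles of all differences outside chromosome 10 were -0.12 and 0.13. Only 1 run of at least 5 bins passed the size of 0.2 in its running median. It was chr7:104470074-107029006, inside the chromosome 7 region, with a level of -0.23 in lost cells (-0.88 to 0.06) and -0.05 in other T7 cells (-0.30 to 0.17), and 3 lost cells past the threshold. Without the 3 cells, 5 of the 179 bins (2.79%) were lower, and so were 84 of the 4715 bins elsewhere (1.78%). Of the 33 higher bins, 9 were among the 359 bins of chromosome 2, 8 among the 244 of chromosome 9 and 4 among the 238 of chromosome 11.

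The 45 listed genes elsewhere, which cover oncogenes, suppressors, p53 regulators, alveolar type 2 genes and genes of plasticity, had differences from -0.07 to 0.15 with a median of 0.02. Only 1 of the 45, Vim, the mesenchymal filament gene on chromosome 2, reached 0.15. It had 0.48 in lost cells (SD 0.15) and 0.33 in other T7 cells (SD 0.18). Over all single bins outside chromosome 10 the 95th percentile of the difference was 0.13, so nothing is read from this 1 gene. Egfr had a difference of 0.11 but was past the loss threshold in 2 of 10 lost cells, 180057 at -0.57 and 180070 at -0.56, and in 0 of 38 other T7 cells; its running median over 5 bins did not register the 2 low bins of 180066. Cdkn2a, the suppressor locus on chromosome 4 outside the lost region, stood at 0.02 in lost cells (SD 0.14) and -0.07 in other T7 cells (SD 0.11), and Trp53 stood at -0.03 in lost cells (SD 0.12) and -0.05 in other T7 cells (SD 0.14).

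Across the tumours, the distal threshold was met by 10 of 48 T7 cells (20.8%, 10.5 to 35.0), 13 of 47 T1 cells (27.7%, 15.6 to 42.6) and 0 of 50 T9 cells, where up to 6% could go unseen. In T1, 12 of the 13 cells were also past the threshold in the proximal part, and their median distal level was -0.56. The remaining T1 cell had a proximal level of -0.20, against -0.06, -0.01 and -0.0032 in the 3 T7 cells with only the distal level past the threshold.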

How the data were processed

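Genomic DNA of 150 single cells was sequenced, 50 per tumour. The submitters' processing notes name BWA 0.7.17 and GRCm38. The tables deposited by the authors give, per bin and cell, a coverage signal (mean depth per base) and a log2 ratio, and per bin a weight score between 0 and 1; the authors' tool and reference for the log2 ratio and the score are not given in the labels or headers used here. Amplification and the treatment of wells with more than 1 cell are not given there either. Of 5331 bins, those with depth in at least 80% of cells and not on Y were kept, 4806 autosomal and 343 on X. Noise was the scaled median absolute difference of neighbouring autosomal bins over the square root of 2, with a limit of 0.267 (median plus 3 scaled median absolute deviations), which left out 1 T7 cell and 3 T1 cells; 1 further T7 cell had depth in under 80% of autosomal bins. Cells were centred on their autosomal median, so a doubling of the whole genome cannot be seen. Single steps were least-squares fits with at least 10 bins on each side, after values were limited to between -2 and 2, and near-best positions were those within the 95% likelihood limit. Edges of inner stretches needed at least 5 bins, or 3 for the retained stretch. RefSeq's GRCm38.p6 annotation gave the positions of all 99 listed genes. Chromosomes were named if their difference was at least 0.1 or 3 cells of a set were called, runs as described, and genes by list: up to 12 distal genes, proximal genes within 10 Mb of the distal region, and genes elsewhere with a difference of at least 0.15. Cdkn2a, Trp53, Egfr, Plek, Arid1a, Ccnd1, the genes of the chromosome 7 and 4 regions and those of the retained stretch were named after their values were seen. The members and the lists were chosen with earlier results of these data known. 1 result on an engineered locus is not reported here. Alternatives changed the centring, noise limit, thresholds, ratio, summary over cells, bins and size rule, and left out each lost cell in turn. The steps were tested on simulated data. Python 3.11.15, numpy 2.4.6, pandas 2.3.3, scipy 1.17.1 and matplotlib 3.10.9 were used.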

Additional observations from a re-analysis of the deposited data

Results flagged for a closer look

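Over 26 levels of the 10 lost cells, a single cell stood far from the others in 2, and chance flags about 1 such group in 20. Both times it was cell 180086, the cell nearest the threshold and with the second highest noise of the lost cells (0.222). Its chromosome 5 stood at -0.096, with the next cell at -0.047, and its chromosome 13 stood at -0.078, with the next cell at -0.037.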

How the results depend on the processing

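Of 242 values recomputed under alternatives, 213 stayed within 1.5 times (counts), 1 SD (levels) or the counting interval (shares), and 29 moved. No called value changed sign, but the chromosome 15 difference, near 0 at -0.0024, was positive from depth (0.0051), without the noise limit, at a distal threshold of -0.3, in cells with both gains only and without some single lost cells. The proximal loss, the 3 cells with the chromosome 7 and 4 losses and the 4 steps on chromosome 10 held under all alternatives run on them, apart from the changes given here. Counts of bins outside chromosome 10 were the least stable. Higher bins (33) numbered 89 from depth, 156 with a size of 0.15 and 1 with 0.3. Lower bins (50) numbered 112 with means over cells, 136 with 0.15 and 9 with 0.3. With only bins of at least median weight, 2575 in all, there were 11 higher, 17 lower and 74 lower in proximal chromosome 10. Without the 3 cells, an alternative added after the data were seen, there were 95 higher and 89 lower. Leaving out 1 lost cell gave 40 to 62 higher and 40 to 78 lower bins, with 62 and 78 without 180055, and with 62, 53 and 50 higher without 180098, 180065 and 180057. It kept 133 proximal bins, 2 or 3 cells with both losses, and differences of 0.042 to 0.057 on chromosome 2, 0.037 to 0.056 on chromosome 6, 0.0049 to 0.020 on chromosome 14 and -0.0053 to 0.00051 on chromosome 15. With means over cells the differences were 0.104 on chromosome 2, 0.051 on chromosome 14 and -0.074 on chromosome 15; in cells with both gains only, that of chromosome 2 was 0.023. Centring on the mode put the gain of chromosome 6 at 70% of lost and 73.7% of other T7 cells, the opposite order. Thresholds of 0.45 and -0.7 called the gain of chromosome 2 in 10% of lost and 18.4% of other T7 cells, that of chromosome 6 in 10% of lost and 23.7% of other T7 cells, again with the order turned, and loss of chromosome 14 in 0% of other T7 cells. Thresholds of 0.2 and -0.25 called both gains in 100% of lost cells and that of chromosome 6 in 89.5% of other T7 cells. The retained stretch stood at -0.15 in 180070 from depth and at -0.11 in 180066 with bins of at least median weight, and the start of chromosome 11 at -0.53 in 180070 from depth. The short stretch of chromosome 11 had no bin of median weight. The set held 9 cells at a distal threshold of -0.5, 11 at -0.3, 11 without the noise limit and 11 from depth. Where not stated, the cause was not tested. No paired analysis was possible because the cells carry no number shared between the sets. The 10 lost cells at a median of 69.3 Mb limit shares to wide intervals.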
